A study of Mus musculus with 3 samples.

Results

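Described here are 10 late-registered mouse microRNAs that gave array signal in serum, taken from the 1881 mouse miRNAs on the array. They are mmu-miR-1224-5p, mmu-miR-1249-3p, mmu-miR-1894-5p, mmu-miR-1895, mmu-miR-1897-5p, mmu-miR-3095-3p, mmu-miR-5119, mmu-miR-5126, mmu-miR-5128 and mmu-miR-6978-5p, given below without the species prefix, and are 10 of the 1062 miRNAs whose registry number is over 1000. They were chosen by having a spot signal above background on at least 1 of these arrays, so their detection is a description and supports nothing. Serum came from male C57BL/6NJcl mice aged 8 weeks, and RNA was prepared from 200 µL in 3 ways, with 1 array each. In the exoRNeasy arm, serum was mixed with 700 µL of the phenol reagent QIAzol and the aqueous layer was put through the exoRNeasy midi kit, which the labels describe as the arm for total RNA. The miRNeasy advanced arm used a column kit made for serum and plasma, and the mirVana PARIS arm used a kit based on organic extraction and a glass-fibre filter. The labels give no treatment of the mice, and do not say how many animals gave serum or whether the extracts came from 1 pool. The comparison asks how the extraction changes the measured miRNAs.

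MicroRNAs are short RNAs that guide Argonaute proteins to messenger RNAs, with most of the pairing made by the seed near the 5′ end. In serum they travel in vesicles and in protein complexes, and much of the pool is released from blood cells and liver. Registry numbers were handed out in order of submission, so that low numbers are mostly abundant miRNAs found by cloning, while the high numbers come largely from deep sequencing and include many entries that are found in a single species and at low abundance. Among the 10, miR-1224 is a mirtron, an intron that folds into the hairpin after splicing, and miR-1224 and miR-1249 also have human counterparts.

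Mature sequences of 9 of the 10 were matched by name in RefSeq on GRCm38.p6. They are shown to let the runs of a single base be seen beside the signals, with the seed, bases 2 to 8, in capitals.
miR-1224-5p: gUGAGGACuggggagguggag
miR-1249-3p: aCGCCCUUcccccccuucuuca
miR-1894-5p: cUCUCCCCuaccaccugccucu
miR-1895: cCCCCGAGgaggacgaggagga
miR-3095-3p: uGGACACUggagagagagcuuuu
miR-5119: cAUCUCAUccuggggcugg
miR-5126: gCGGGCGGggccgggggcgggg
miR-5128: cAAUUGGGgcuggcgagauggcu
miR-6978-5p: aAGGGGUGagagagaagcuggug
The 9 seeds were all different, and none of them was shared with another miRNA of the array that had a sequence in the table.

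On GRCm38.p6, the mature miR-1224-5p lies at chr16:20604452-20604472 on the plus strand, within the span of Vwa5b2. miR-1249-3p lies at chr15:84951545-84951566 on the minus strand within 5031439G07Rik, and miR-1894-5p at chr17:35917899-35917920 on the plus strand within Ppp1r10, a regulatory subunit of protein phosphatase 1. miR-1895 lies at chr3:134240515-134240536 on the minus strand, opposite to Cxxc4, an inhibitor of Wnt signalling. miR-3095-3p lies at chr4:58441023-58441045 on the minus strand within Lpar1, a receptor for lysophosphatidic acid, and miR-5119 at chr11:98262638-98262656 on the plus strand within Cdk12, a kinase of RNA polymerase II. miR-5126 lies at chr1:84695890-84695911 on the plus strand, opposite to the neuronal Notch ligand gene Dner. miR-5128 lies at chr2:37688212-37688234 on the minus strand within Strbp, and miR-6978-5p at chr17:57217201-57217223 on the minus strand within C3, the gene of complement component 3, a plasma protein made mainly in liver. All 9 thus fall inside the span of a protein-coding gene, 7 on its strand and 2 on the other. None overlaps a RefSeq promoter window, and whether a position is exonic or intronic was not determined here.

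The sequences were rich in G or C, as were those of the other detected late-registered miRNAs. The median GC content of the 9 was 63.6%, from 47.8% in miR-3095-3p to 100% in miR-5126, and the 24 other detected miRNAs numbered over 1000 that had a sequence were at 65.1%. The median was 55% for the 892 with such numbers that were detected on no array, 40.9% for the 43 miRNAs of conserved families that were detected on all 3 arrays and had a sequence, and 52.2% for the 1608 array miRNAs with a sequence. The run GGGG, searched on the miRNA strand, was in 5 of the 9, namely miR-1224-5p, miR-5119, miR-5126, miR-5128 and miR-6978-5p. The run CCCC was in 3, miR-1249-3p, miR-1894-5p and miR-1895, and miR-3095-3p had neither. GGGG was in 11.3% of the 1608 sequences and in 0 of the 43 conserved ones, and CCCC in 7.46% and in 2 of 43. Among the other detected miRNAs numbered over 1000, 12 of 24 held GGGG and 1 of 24 held CCCC, against 13.1% and 10.5% of the 892 undetected ones.

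A probe counted as detected when more than 0.5 of its replicate spots, outlier spots left out, were flagged well above background by the scanner software, and a miRNA when at least 1 probe did. The exoRNeasy array detected 8 of the 10, the miRNeasy advanced array 7 and the mirVana PARIS array 9, where 4.41%, 3.77% and 7.12% of all 1881 miRNAs were detected in the same order. With 1 array for each extract there was no replicate check and no test of significance. Each array took 1.8 ng of RNA, so raw signals do not give the yield from a volume of serum. All errors are between replicate spots of a probe, and cover neither extraction nor mice. A low serum level from fewer releasing cells and one from less RNA per cell cannot be told apart. The RNA carried the usual serum miRNAs: the red cell miR-451a ranked 1 on every array, and miR-16-5p, miR-486a-5p, the liver miRNA miR-122-5p and the myeloid miR-223-3p were detected on all 3. The dimmest probe that passed had a signal of 21.6 in the exoRNeasy extract, 12.2 in the miRNeasy advanced extract and 8.81 in the mirVana PARIS extract, so a miRNA had to be brighter to be detected in the exoRNeasy extract.

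On all 3 arrays, 5 of the 10 were detected. The mirtron product miR-1224-5p (mmu-miR-1224-5p) was the brightest of them, with a signal of 313 in the exoRNeasy extract, 215 in the miRNeasy advanced extract and 379 in the mirVana PARIS extract. It ranked 11 among the 83 miRNAs detected in the exoRNeasy extract, 9 of 71 in the miRNeasy advanced extract and 15 of 134 in the mirVana PARIS extract. On each array it thus ranked above every other member.

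miR-5126, made of G and C alone, had signals of 73.3, 81.9 and 133 on the exoRNeasy, miRNeasy advanced and mirVana PARIS arrays. miR-5128 had 83.7, 79.9 and 117 in the same order. For both, the exoRNeasy and miRNeasy advanced arrays lay close together and the mirVana PARIS array was the highest. Both ranked highest in the miRNeasy advanced extract: miR-5126 ranked 39 of 83, 18 of 71 and 36 of 134, and miR-5128 ranked 36, 19 and 40.

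miR-1895 was dim, with signals of 26.02, 13.0 and 35.2 on the exoRNeasy, miRNeasy advanced and mirVana PARIS arrays. miR-3095-3p had 45.6, 12.4 and 35.1 in that order. The exoRNeasy array was the highest for miR-3095-3p and the mirVana PARIS array for miR-1895, and for both the miRNeasy advanced array was the lowest and just above the limit. On that array miR-3095-3p passed with 8 of 15 spots on 1 probe, while its other probe had 7 of 15 and did not pass.

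The other members were above background on some arrays only. miR-5119, from Cdk12, had signals of 45.6 with exoRNeasy, 1.04 with miRNeasy advanced and 13.7 with mirVana PARIS. The value with miRNeasy advanced was not detected and lay close to the floor of 1 set for spot signals. miR-6978-5p, from C3, had 45.5, 7.90 and 28.9 in the same order, again not well above background with miRNeasy advanced. In both extracts that detected them, every spot of 1 probe was above background, and both missed the limit on the same array.

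miR-1249-3p and miR-1897-5p showed another pattern. miR-1249-3p had a signal of 20.04 with exoRNeasy, where 2 of 15 spots passed and it was not detected, 12.8 with miRNeasy advanced and 11.1 with mirVana PARIS. It was therefore brightest where it was not detected. miR-1897-5p had 10.02 with exoRNeasy, where no spot passed, 13.3 with miRNeasy advanced and 24.8 with mirVana PARIS. Only 4 of all miRNAs were detected on both the miRNeasy advanced and mirVana PARIS arrays and not in the exoRNeasy extract. The others were miR-296-5p and miR-3470a, and none of the 4 was on the hand-written list of conserved families.

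miR-1894-5p, from Ppp1r10, was detected in the exoRNeasy extract alone, with a signal of 22.4 and 10 of 15 spots above background, against 1.89 in the miRNeasy advanced extract and 1.49 in the mirVana PARIS extract. It is 1 of the 3 miRNAs seen on that array alone. Just inside the limit, with the fewest passing spots on the probe that stood for it, were miR-3095-3p with miRNeasy advanced (8 of 15), miR-1249-3p with mirVana PARIS (9 of 14) and with miRNeasy advanced (10 of 15), and miR-1894-5p with exoRNeasy. Just outside, the undetected miRNA of a number over 1000 with the highest mean was miR-6924-3p, at 13.4, 7.28 and 6.48 on the exoRNeasy, miRNeasy advanced and mirVana PARIS arrays, and the one with most spots in the exoRNeasy extract was miR-7047-3p, with 7 of 15.

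**Figure D1:**
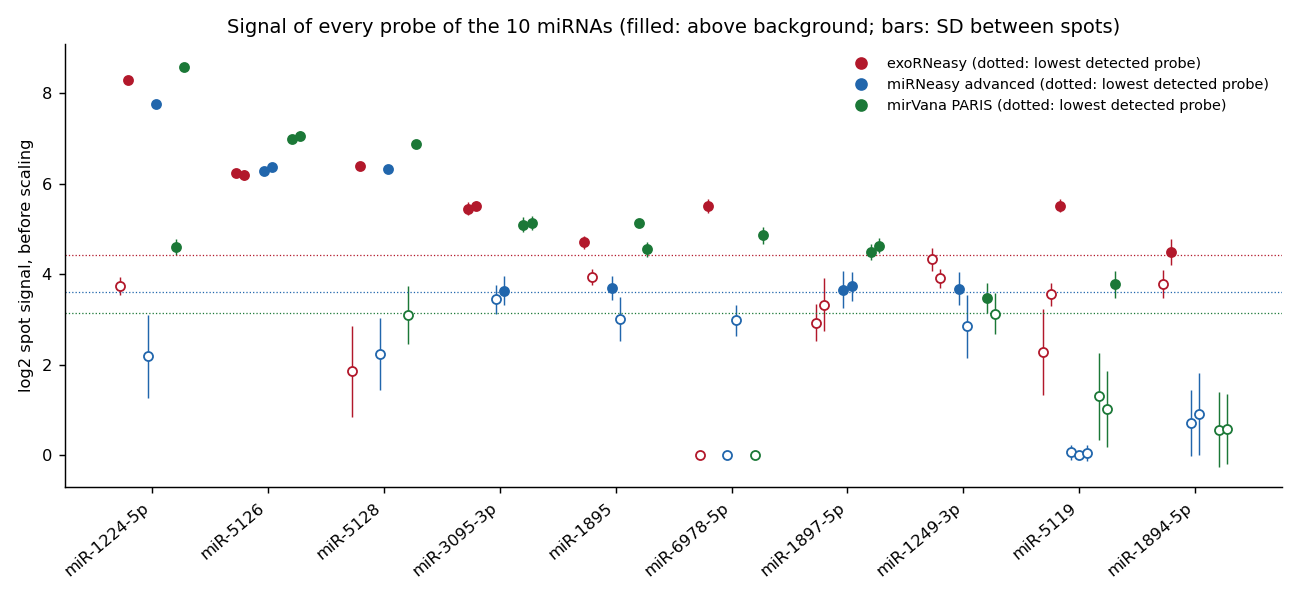
Log2 spot signal before scaling for every probe of the 10 miRNAs on each array, ordered by mean level. Filled points are probes above background, bars are the SD between spots, and dotted lines mark the dimmest detected probe on each array. miR-5126 and miR-3095-3p have probes that lie together, while miR-1224-5p, miR-5128, miR-6978-5p and miR-5119 have 1 bright probe and others well below it.

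Sequences with a C run had a higher median signal in the exoRNeasy extract than other sequences even when undetected. Over the 108 miRNAs that held CCCC and no GGGG and were detected on no array, the median log2 level was 2.76 in the exoRNeasy extract, 0.81 in the miRNeasy advanced extract and 0.56 in the mirVana PARIS extract. Over the 1218 undetected miRNAs with neither run the medians were 0.062, 0.12 and 0.14 in that order, and over the 161 with GGGG they were 0, 0.012 and 0.057. miR-1894-5p, with a C run, had log2 levels of 4.49, 0.92 and 0.57 on the exoRNeasy, miRNeasy advanced and mirVana PARIS arrays. On the miRNeasy advanced and mirVana PARIS arrays, 50 and 53 of the 108 were as bright as it or brighter. In the exoRNeasy extract 0 of 108 were as bright, which follows in part from how undetected miRNAs were defined. miR-1249-3p, with the longest C run of the 9, had log2 levels of 4.32, 3.68 and 3.47 in the same order, and 0 of the 108 were as bright on any array. On the miRNeasy advanced and mirVana PARIS arrays, which detected miR-1249-3p, that count too follows in part from the definition. In the exoRNeasy extract, which did not detect it, the brightest of the 108 was at 4.25. The brightest of the 1218 with neither run was at 4.44 there, above miR-1249-3p. The part of this raised signal in the levels of miR-1894-5p, miR-1249-3p and miR-1895 was not tested.

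Whether the probes of 1 miRNA gave the same level separated the members into 2 kinds. Those with probes that lay together were miR-5126, miR-3095-3p and miR-1897-5p. For miR-5126 the brighter probe exceeded the dimmer by 0.031 log2 units in the exoRNeasy extract, 0.069 in the miRNeasy advanced extract and 0.068 in the mirVana PARIS extract. For miR-3095-3p the gaps were 0.064, 0.18 and 0.039. miR-1897-5p had gaps of 0.082 and 0.14 on the miRNeasy advanced and mirVana PARIS arrays, where both its probes passed. miR-1895, miR-1249-3p and miR-1894-5p had gaps of 0.34 to 0.84 on the arrays that detected them. Only 1 of the 2 probes of miR-1249-3p and of miR-1894-5p passed on these arrays. Both probes of miR-1895 passed in the mirVana PARIS extract alone.

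The other kind had a single bright probe. For miR-1224-5p the bright probe stood 4.55, 5.56 and 3.97 log2 units above the dim one on the exoRNeasy, miRNeasy advanced and mirVana PARIS arrays, and the dim one passed in the mirVana PARIS extract alone. For miR-5128 the gaps were 4.53, 4.08 and 3.77, and the dim probe passed on none. All 15 spots of the dim probe of miR-6978-5p were at or below a signal of 1.04 on every array, so its gaps of 5.51 in the exoRNeasy extract and 4.85 in the mirVana PARIS extract are lower limits set by the floor. The level of these miRNAs rests on 1 probe each. miR-5119, with 3 probes, had gaps of 3.24 in the exoRNeasy extract and 2.75 in the mirVana PARIS extract, and its signal also came from 1 of them.

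Such gaps were not particular to the late-registered miRNAs. A gap over 2 log2 units was found for 4 of the 8 members detected in the exoRNeasy extract, 2 of 7 in the miRNeasy advanced extract and 4 of 9 in the mirVana PARIS extract, beside 43.4%, 43.7% and 43.3% of all miRNAs detected on those arrays. Among conserved miRNAs in the members' level range it was found for 20 of 51, 19 of 44 and 30 of 73. The median gap was 2.00 for the members and 1.67 for these conserved miRNAs in the exoRNeasy extract, 0.68 and 1.83 in the miRNeasy advanced extract, and 0.59 and 1.62 in the mirVana PARIS extract. Every probe was above background for 2 of 8, 2 of 7 and 5 of 9 members, beside 53.0%, 57.7% and 56.0% of all detected miRNAs. The members' gaps were either at most 0.84 or at least 2.75, while conserved miRNAs also had gaps between these.

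**Figure D2:**
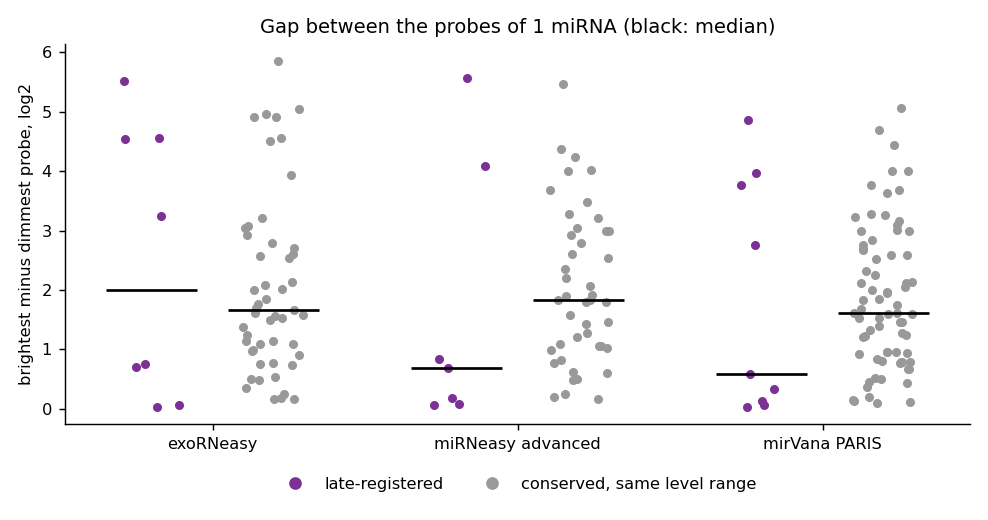
Difference in log2 level between the brightest and the dimmest probe of each miRNA detected on an array. Late-registered members are set beside miRNAs of conserved families in the same level range, with black lines at the medians. In the exoRNeasy extract the medians are 2.00 for the members and 1.67 for the conserved miRNAs. The members' points form a low and a high group.

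Where 2 probes of a member were detected on both arrays, their log2 ratios between arrays differed by about 0.10 or less. The 2 probes of miR-5126 differed by 0.10 in their log2 ratio of the exoRNeasy over the mirVana PARIS array, by 0.10 for the exoRNeasy over the miRNeasy advanced array and by 0.00090 for the miRNeasy advanced over the mirVana PARIS array. The probes of miR-3095-3p differed by 0.025 for the exoRNeasy over the mirVana PARIS array, and those of miR-1897-5p by 0.057 for the miRNeasy advanced over the mirVana PARIS array. The median difference over conserved miRNAs in the level range was 0.15 for the exoRNeasy over the mirVana PARIS array (28 miRNAs), 0.065 for the exoRNeasy over the miRNeasy advanced array (28) and 0.16 for the miRNeasy advanced over the mirVana PARIS array (29). The level range was that of the mean log2 levels of all 10 members, 1.99 to 8.20. For miR-5126 the spot errors of the 3 differences were 0.047, 0.042 and 0.040. Only miR-1897-5p, miR-3095-3p and miR-5126 could be assessed this way, since a probe had to pass on both arrays. Left out was miR-1224-5p, whose ratio of miRNeasy advanced over mirVana PARIS was 0.99 on the bright probe and -0.61 on the dim one.

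Ratios between arrays were computed after each array was scaled to the 75th percentile of the 106 probes detected on all 3, which took away a shift of the whole array. A ratio was called at 2-fold or more and over 3 spot errors. Of the 7 members detected on both the exoRNeasy and mirVana PARIS arrays, 3 were called higher in the exoRNeasy extract, where 25.0% of the 80 miRNAs detected on both were, and 0 lower, where 2.5% were. They were miR-5119, 6.54-fold higher (log2 2.71 ± 0.10), miR-6978-5p, 3.08-fold higher (1.62 ± 0.06), and miR-3095-3p, 2.54-fold higher (1.35 ± 0.05). The other 4 ranged from 0.11 for miR-5126 to 0.69 for miR-1224-5p. The median of the 7 was 0.69 and that of all 80 was 0.33. Without scaling miR-5119 alone stayed past 2-fold, at 1.74, and miR-6978-5p and miR-3095-3p stood at 0.65 and 0.38. With the 75th percentile taken across every probe, most of them undetected, miR-3095-3p turned to -0.087. With a model-based background correction (normexp), which here also added 50 to every signal, miR-3095-3p was at 0.93 and no longer called.

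miR-1894-5p, not well above background in the mirVana PARIS extract, was at least 4.98-fold higher in the exoRNeasy extract. Here the bright level is set against the dimmest detected probe of the other array, or the miRNA's own level there if higher, and the measured scaled log2 levels were -2.56 in the exoRNeasy extract and -7.44 in the mirVana PARIS extract. Without scaling the limit was 2.54-fold. miR-1249-3p and miR-1897-5p, detected in the mirVana PARIS extract and not in the exoRNeasy extract, gave no limit above 1-fold after scaling; without it miR-1897-5p was at least 1.15-fold lower with exoRNeasy.

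Between the exoRNeasy and miRNeasy advanced arrays, 67 miRNAs were detected on both, and 4.48% of them were called in either direction. Of the 5 members among them, 1 was called higher in the exoRNeasy extract, where 2.99% of all were, and 0 lower, where 1.49% were. It was miR-3095-3p, with 1.04 ± 0.09 on the log2 scale and 0.056, no longer called, with normexp. miR-5126 stood at -0.996 ± 0.04 and miR-5128 at -0.77 ± 0.03, ranking 66 and 63 of the 67 from the highest ratio down; with scaling to the median of the shared probes both passed 2-fold lower, at -1.28 and -1.05. miR-1224-5p had -0.29 ± 0.02 and miR-1895 0.17 ± 0.08. The members were thus spread to both ends of the comparison, with a median of -0.29 against 0.12 over all 67. miR-5119 and miR-6978-5p, not well above background in the miRNeasy advanced extract, were each at least 2.10-fold higher in the exoRNeasy extract, and at least 3.75-fold and 3.74-fold without scaling. For miR-1894-5p the limit was 1.03-fold. For miR-1249-3p and miR-1897-5p the limits were 1.06-fold and 1.10-fold lower with exoRNeasy, and none was above 1-fold without scaling. On the log2 scale the limits of miR-1894-5p, miR-1249-3p and miR-1897-5p were 0.046, 0.088 and 0.14. The spot errors of their detected levels were 0.075, 0.092 and 0.082, so none of these limits passed 3 spot errors.

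For miRNeasy advanced against mirVana PARIS, 3 of 7 members were called higher in the miRNeasy advanced extract, where 14.1% of 71 were, and 0 lower, where 2.82% were. miR-1249-3p had the highest ratio of all 71, at 4.05-fold (log2 2.02 ± 0.13), followed among the members by miR-5128 at 1.25 ± 0.03 and miR-5126 at 1.10 ± 0.03, which ranked 7 and 8. With normexp the last 2 were no longer called, at 0.91 and 0.81, and miR-1897-5p was, at 1.03. miR-1224-5p stood at 0.99 ± 0.02, miR-1897-5p at 0.91 ± 0.09, miR-1895 at 0.36 ± 0.07 and miR-3095-3p at 0.30 ± 0.09. All 7 were above the median of the 71, which was 0.18, and their own median was 0.99; the 49 conserved miRNAs had a median of 0.064. These directions rested on the scaling. Without it the median of all 71 was -1.63, that of the members was -0.82, and miR-5128 and miR-5126 stood at -0.56 and -0.70. Except miR-1249-3p at 0.21, the members were thus dimmer in the miRNeasy advanced extract than in the mirVana PARIS extract. They were dimmer by less than the median miRNA. The high scaled ratio of miR-1249-3p came from signals near the limit, 12.8 with miRNeasy advanced and 11.1 with mirVana PARIS. Just outside the limit, miR-6924-3p, miR-7022-3p and miR-7085-3p, detected on no array, had scaled log2 ratios of 1.97, 1.96 and 1.71 here. The part of signal near background in the ratio of miR-1249-3p was not tested. miR-5119 and miR-6978-5p, below the limit with miRNeasy advanced, gave no limit above 1-fold after scaling. Before it the limits were 1.12-fold and 2.38-fold lower with miRNeasy advanced. That of miR-5119, log2 0.17, did not pass 3 spot errors of its mirVana PARIS level (0.093). The 3 comparisons share arrays and are not independent.

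**Figure D3:**
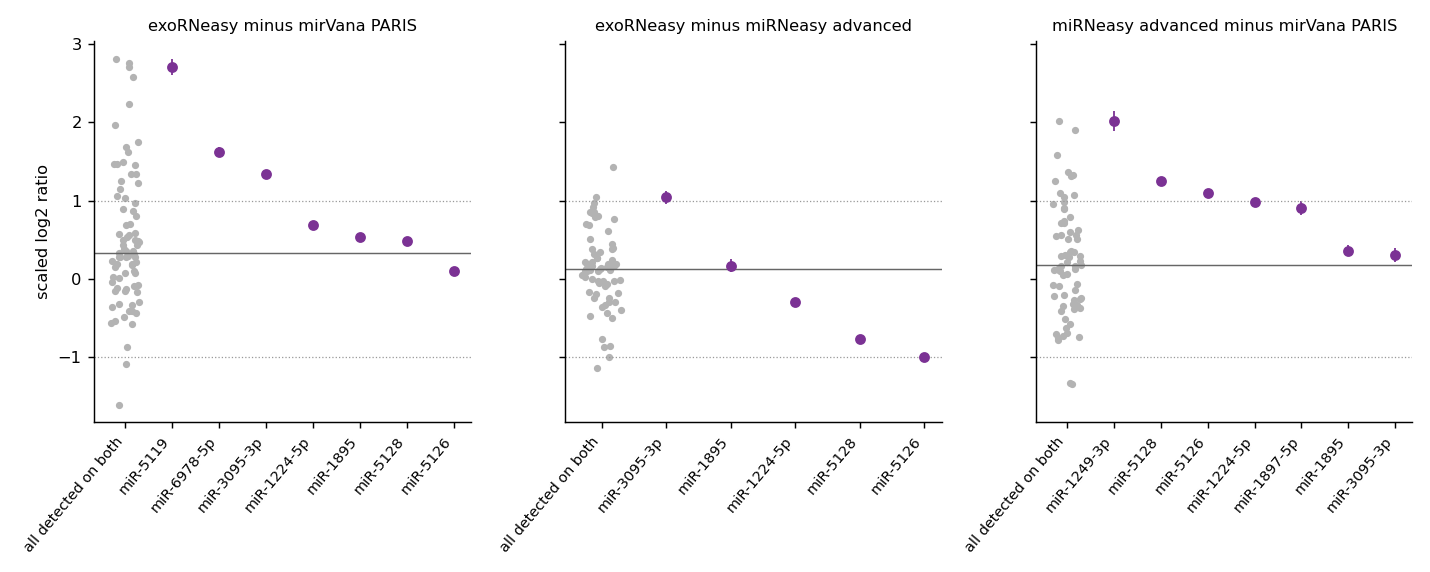
Scaled log2 ratio between 2 arrays for the late-registered members detected on both (purple, bars are the spot error) and for all miRNAs detected on both (grey). Grey lines mark the median of all and dotted lines 2-fold. In the panel of miRNeasy advanced minus mirVana PARIS all 7 members lie above the median of 0.18. In the panel of exoRNeasy minus miRNeasy advanced the members run from 1.04 to -0.996.

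How steady the signal was across the 3 extracts depended on whether the arrays were scaled. The measure is the highest minus the lowest log2 level of a miRNA over the 3 arrays, for miRNAs detected on all of them. After scaling it was 0.99 for miR-1224-5p, 0.53 for miR-1895, 1.35 for miR-3095-3p, 1.10 for miR-5126 and 1.25 for miR-5128, with a median of 1.10. The 42 conserved miRNAs in the same range of mean level had a median of 0.67, from 0.13 to 1.97, and 11 of them exceeded the members' median. Before scaling the order turned round. The members had 0.82 for miR-1224-5p, 1.44 for miR-1895, 1.88 for miR-3095-3p, 0.86 for miR-5126 and 0.56 for miR-5128, with a median of 0.86, against 1.75 for the conserved miRNAs. Only 1 of the 42 conserved miRNAs was below the members' unscaled median. In raw signal 4 of the 5 members therefore varied less than the conserved median, with miR-3095-3p above it. Once the arrays were aligned on shared probes 4 of the 5 varied more, with miR-1895 below it. The 8 other miRNAs numbered over 1000 on all arrays had a median of 0.39 after scaling and 1.49 before it. After scaling that median was below the conserved one, where the members' median was above it. With 5 members and 1 array for each extract, this is a description without a test.

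**Figure D4:**
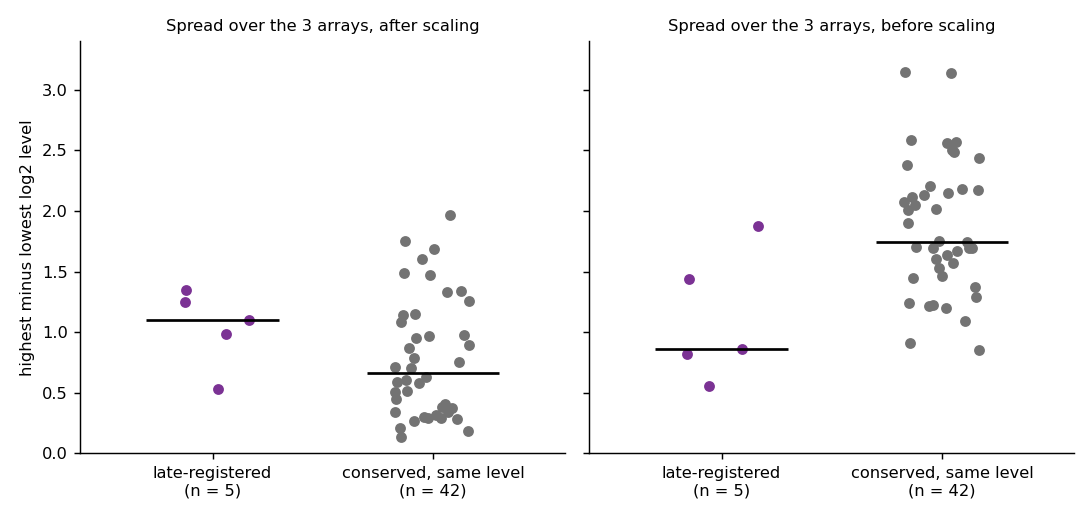
Highest minus lowest log2 level over the 3 arrays for miRNAs detected on all of them, after scaling on the left and before scaling on the right, with black lines at the medians. The 5 late-registered members have medians of 1.10 and 0.86, conserved miRNAs of the same level range 0.67 and 1.75. The 8 other miRNAs numbered over 1000 on all arrays, not drawn, have 0.39 and 1.49.

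Set beside the nearest in mean level among the listed conserved miRNAs, the members differed among themselves. The list left out miR-497a-5p and miR-195a-5p, which lay nearer than let-7d-5p to miR-3095-3p and miR-1895. Mean log2 levels were 4.76 for miR-3095-3p, 4.75 for miR-497a-5p, 4.78 for let-7d-5p, 4.51 for miR-1895 and 4.62 for miR-195a-5p. Spans over the arrays after scaling were 0.16 for miR-497a-5p and 0.21 for miR-195a-5p, beside 1.35 for miR-3095-3p and 0.53 for miR-1895. miR-3095-3p followed let-7d-5p, a let-7 family member that limits growth, both in level and in pattern: its scaled log2 levels were -1.54, -2.58 and -2.88 on the exoRNeasy, miRNeasy advanced and mirVana PARIS arrays, and those of let-7d-5p were -1.64, -2.49 and -2.79. Over 62 other miRNAs detected on all arrays, let-7d-5p was also the closest in the 3 scaled levels centred on their mean, at a Euclidean distance of 0.15. miR-1895, with let-7d-5p as its neighbour in level too, had a flatter pattern of -2.34, -2.52 and -2.88, closest to that of miR-223-3p at a distance of 0.075. miR-1224-5p was closest in pattern to miR-3473b, at 0.077, and its neighbour in level, miR-29a-3p, had 1.39, 1.27 and 1.22 where miR-1224-5p had 1.24, 1.54 and 0.55. For miR-5126 and miR-5128 the neighbour in level was miR-122-5p, at -0.12, -1.10 and -0.31. miR-5126 had -0.85, 0.15 and -0.96 and miR-5128 had -0.66, 0.11 and -1.14. Both were highest on the array where miR-122-5p was lowest. Their closest patterns were those of miR-142a-3p, at 0.37, and of miR-199a-3p, at 0.24. With 3 arrays, many miRNAs can come near in pattern.

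Members on fewer arrays were set against conserved miRNAs with the same detection. miR-6978-5p had scaled log2 levels of -1.54, -3.23 and -3.16 on the exoRNeasy, miRNeasy advanced and mirVana PARIS arrays, and its neighbour miR-200b-3p, an epithelial miRNA that represses Zeb factors, had -1.20, -3.17 and -3.44. miR-5119 had -1.53, -6.15 and -4.24, with the middle value near the floor, and its neighbour miR-652-3p had -2.30, -3.60 and -3.63. The single candidate for miR-1894-5p was miR-429-3p, another epithelial miRNA, at -2.32, -4.50 and -4.98. No miRNA on the hand-written list of conserved families shared the detection of miR-1249-3p and miR-1897-5p. miR-296-5p, which did share it, was not on that list.

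miR-5128 resembled another array miRNA closely in sequence. Its last 17 bases aligned without a gap to miR-3473b with 16 identical, shown in capitals.
miR-5128: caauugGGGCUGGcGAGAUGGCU
miR-3473b: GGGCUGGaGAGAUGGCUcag
An alignment scoring as high, with 1 for a match and -2 for a mismatch, to some other miRNA was found for 12.4% of the 1608 array miRNAs with a sequence. The mature miR-3473b lies at chr10:41670774-41670793 on the plus strand of GRCm38.p6. miR-5128 had log2 levels of 6.39, 6.32 and 6.88 on the exoRNeasy, miRNeasy advanced and mirVana PARIS arrays, against 9.53, 8.94 and 9.70 for miR-3473b, which was the brighter on every array. miR-3473e, also with 16 of 17 identical bases, was dimmer than miR-5128, at 3.84, 3.39 and 4.50. Whether probes for miR-5128 also capture miR-3473b was not tested. For the other 8 members with a sequence the best alignment scored 9 to 11, where 87.2% of array miRNAs reached 9 and 34.3% reached 11. Among these, miR-3095-3p shared an unbroken run of 10 bases with miR-3473f and of 9 with miR-3473b.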

How the data were processed

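RNA of each extract (1.8 ng, labelled with Cy3) went onto 1 single-colour Agilent array of mouse miRNAs. Linear spot intensity values in the deposited scanner output came from Feature Extraction, version 11.5.1.1 as per the file headers, background-subtracted and not normalized between arrays; the submitters' processing notes name version 11.5. The deposited value table held the same intensity values within 0.6%, linear and not centred, with column medians of -2.77 (exoRNeasy), -1.51 (miRNeasy advanced) and -1.44 (mirVana PARIS). Of 58594 spots, 56430 belonged to 4415 miRNA probes; 1515, 1474 and 1427 outlier spots were left out in that order, and no spot was saturated. Negative controls averaged 5.26 ± 3.53, 4.88 ± 2.65 and 4.90 ± 2.53 (SD between spots).

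Spot signals were raised to at least 1, log2-transformed and averaged per probe. Each miRNA was represented by 1 probe, ordered by the number of arrays that detected it and then by mean level. Scaling subtracted the 75th percentile over probes detected on all arrays, 7.05, 6.21 and 8.02 in the same order. Python 3.11.15 was used, with limma 3.58.1 in R for normexp, run on median pixel signals with an offset of 50. Mature sequences and positions are RefSeq's on GRCm38.p6. The computation of log2 ratios was tested on simulated data. Conserved miRNAs were those of a hand-written list of families taken as conserved, arms not distinguished. The list is incomplete. It left out miR-195a-5p, miR-497a-5p, miR-20b-5p, miR-322-5p and miR-296-5p, which are named for that reason. The members, lists and rules were chosen with earlier results of these data known; the searches for GGGG, CCCC and alignments were added after values were seen. Named miRNAs are all members, per member the conserved miRNA nearest in level and the miRNA nearest in pattern, those next to the detection limit, and detected non-members numbered over 1000; host genes follow from position, and alignment partners, miRNAs sharing a detection pattern and the 3 with most spots just under the limit were added to these on seeing their values. The arrays' number limits the precision.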

Additional observations from a re-analysis of the deposited data

How the results depend on the processing

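No paired analysis was possible because each extraction has 1 array. Keeping outlier spots, a spot floor of 4 and the deposited value table changed none of the 19 member ratios in direction or call. The floor and the deposited table could hardly do so. The spots used for these ratios lay above 4, and the table holds the same intensities within 0.6%. Requiring every probe left 2 members in the exoRNeasy extract, 2 in the miRNeasy advanced extract and 5 in the mirVana PARIS extract, and requiring every spot of 1 probe left 3 in the miRNeasy advanced extract. For exoRNeasy minus mirVana PARIS, members called higher fell to 1 both without scaling and with the 75th percentile taken across every probe, which called 1 lower; the median was -0.28 and -0.74, 0.45 with the median of shared probes, 0.64 with normexp and 0.48 with the mean of all detected probes. miR-3095-3p turned to -0.087 with the 75th percentile taken across every probe. For exoRNeasy minus miRNeasy advanced, 2 were higher without scaling, 0 with the median of shared probes (2 lower) and 0 with normexp; the median was 0.54 without scaling, 0.053 with the every-probe percentile, -0.57 with the median of shared probes, -0.23 with normexp and 0.13 with the probe mean. For miRNeasy advanced minus mirVana PARIS, 0 were higher and 2 lower both without scaling and with the every-probe percentile; the median was -0.82 and -0.79, and 0.87 with normexp, which called 2 higher, miR-1249-3p and miR-1897-5p. Without scaling and with the every-probe percentile miR-5126 reversed to -0.70 and -0.67, and miR-5128 to -0.56 and -0.53. Calls also ended for miR-6978-5p in exoRNeasy minus mirVana PARIS (0.65 without scaling, 0.19 with the every-probe percentile), for miR-3095-3p in exoRNeasy minus miRNeasy advanced (0.76 with the median of shared probes) and for miR-1249-3p in miRNeasy advanced minus mirVana PARIS (0.21 without scaling, 0.24 with the every-probe percentile), where miR-1224-5p passed with the median of shared probes (1.02). The members' median span was 0.86 without scaling, 1.33 with the every-probe percentile and 0.87 with normexp; that of conserved miRNAs was 1.75, 1.77 and 0.44, 0.80 with the probe mean and 0.52 over the 10 conserved miRNAs nearest in level. Scaling by 1 factor moves all ratios of a comparison alike. Of the 4415 probes, 128, 115 and 213 were detected on the exoRNeasy, miRNeasy advanced and mirVana PARIS arrays. The every-probe percentile therefore falls among undetected probes and aligns the arrays on signal near background. The normexp setting added 50 to every signal, where miR-3095-3p had 45.6, 12.4 and 35.1 on the exoRNeasy, miRNeasy advanced and mirVana PARIS arrays. A constant of that size shrinks the log2 ratios of dim miRNAs before scaling. Calls lost or gained under normexp are therefore a limited check, and the part of the offset in them was not tested. Signal over background limits miR-1249-3p, miR-1894-5p, miR-1897-5p and, in the miRNeasy advanced extract, miR-1895 and miR-3095-3p.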

Other observations

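Of the 1062 array miRNAs numbered over 1000, 36 were detected on at least 1 array, the 10 described above and 26 others. Of the 26, 8 were detected on all 3 arrays, the brightest being miR-3963, with log2 levels of 10.21, 9.39 and 10.85 on the exoRNeasy, miRNeasy advanced and mirVana PARIS arrays. miR-3473b followed at 9.53, 8.94 and 9.70, and miR-5100 at 8.16, 7.51 and 9.45. A further 15 were detected in the mirVana PARIS extract alone, among them miR-2137, miR-2861, miR-3960 and miR-7082-5p. On that array their level reached at most 5.06, for miR-3473g. For the 8 on all arrays the median span over the arrays was 0.39 after scaling and 1.49 before it, beside 1.10 and 0.86 for the 5 members on all arrays.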
